A study of Mus musculus with 3 samples.

Results

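The mitosis and kinetochore genes are a list of 45 genes whose products build the spindle, attach chromosomes to it and divide the cell. Members were chosen by name, as non-control probes that carried 1 of these gene symbols on the array and were well above background on at least 1 array. All 45 were found, among 22852 gene names that met the same detection rule. They were represented by 63 probes, of which 62 were well above background on at least 1 array. For each gene the probe with the highest mean signal was used. That probe was well above background on all 3 arrays for 43 members, the exceptions being Aurkb and Cenpf. No member spot was saturated (0 spots).

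The spleens came from C57BL/6J mice (males, according to the methods of the study, with no age given per sample) made diabetic with streptozotocin (STZ), a toxin of pancreatic beta cells. All recipients were given 25 syngeneic islets into the spleen and 100 beneath the kidney capsule (SP25+KC100), although the sample characteristics name the capsular graft for Sample 3 alone. Sample 1 was taken right after transplantation (day 0) and Sample 2 on day 2, both with the kidney graft in place, and Sample 3 on day 139, after the graft-bearing kidney had been removed on day 100. All 3 samples thus shared the agent and the graft dose, and a spleen without a graft was not analysed here. Each day was 1 array, and the number of mice behind an array was not given. Age, interval since STZ, duration of the graft and nephrectomy therefore changed together with the day and cannot be told apart, and no p-value could be computed. In whole spleen, fewer cells of a type and less RNA per cell cannot be told apart either.

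Mitosis genes are transcribed in a wave that starts in S phase and peaks before and during mitosis. Resting cells hold them down through the DREAM complex, and cycling cells raise them through B-Myb and FoxM1. Many of their promoters carry a cell cycle genes homology region (CHR), the element these complexes recognise, together with CCAAT boxes bound by the factor NF-Y. The adult mouse spleen holds several dividing populations, among them erythroid precursors of the red pulp, megakaryocytes and activated lymphocytes.

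Signals are linear and quantile-normalized over the 3 arrays so that every array has the same distribution. They were compared between days for the same probe and never between probes. Well above background were 54.4% of all probes on day 0, 53.8% on day 2 and 50.4% on day 139. As the measure of error, the scanner software gives each spot a signal error. Combined over both arrays, it came to a median of 0.20 on the log2 ratio of a member. This covers the measurement of the spots and not the spread between mice. Bub1, the only member printed as 10 spots, shows the spread of repeated spots. Its scanner signals before normalization spanned 478 to 553 on day 0, 555 to 620 on day 2 and 286 to 338 on day 139. The SD of the spots was 5.80%, 3.60% and 5.32% of the mean. Gaps between the spans of different days also hold the brightness of each whole array and were not read. For day 139 over day 0, the log2 ratio of Bub1 was -0.51 after quantile normalization and -0.12 when scaled to spike-in control RNAs.

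On day 139 the mitosis genes were lower than on either earlier day. With quantile normalization, the lowest of the 3 signals was that of day 139 in 43 of 45 members, and the exceptions were Pttg1 and Kif18a. The highest was that of day 2 in 35 members, of day 0 in 9 and of day 139 in 1. Every one of the 35 genes highest on day 2 was lowest on day 139. The 3 ratios of a gene share arrays, so these orders do not count as separate observations.

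**Figure D1:**
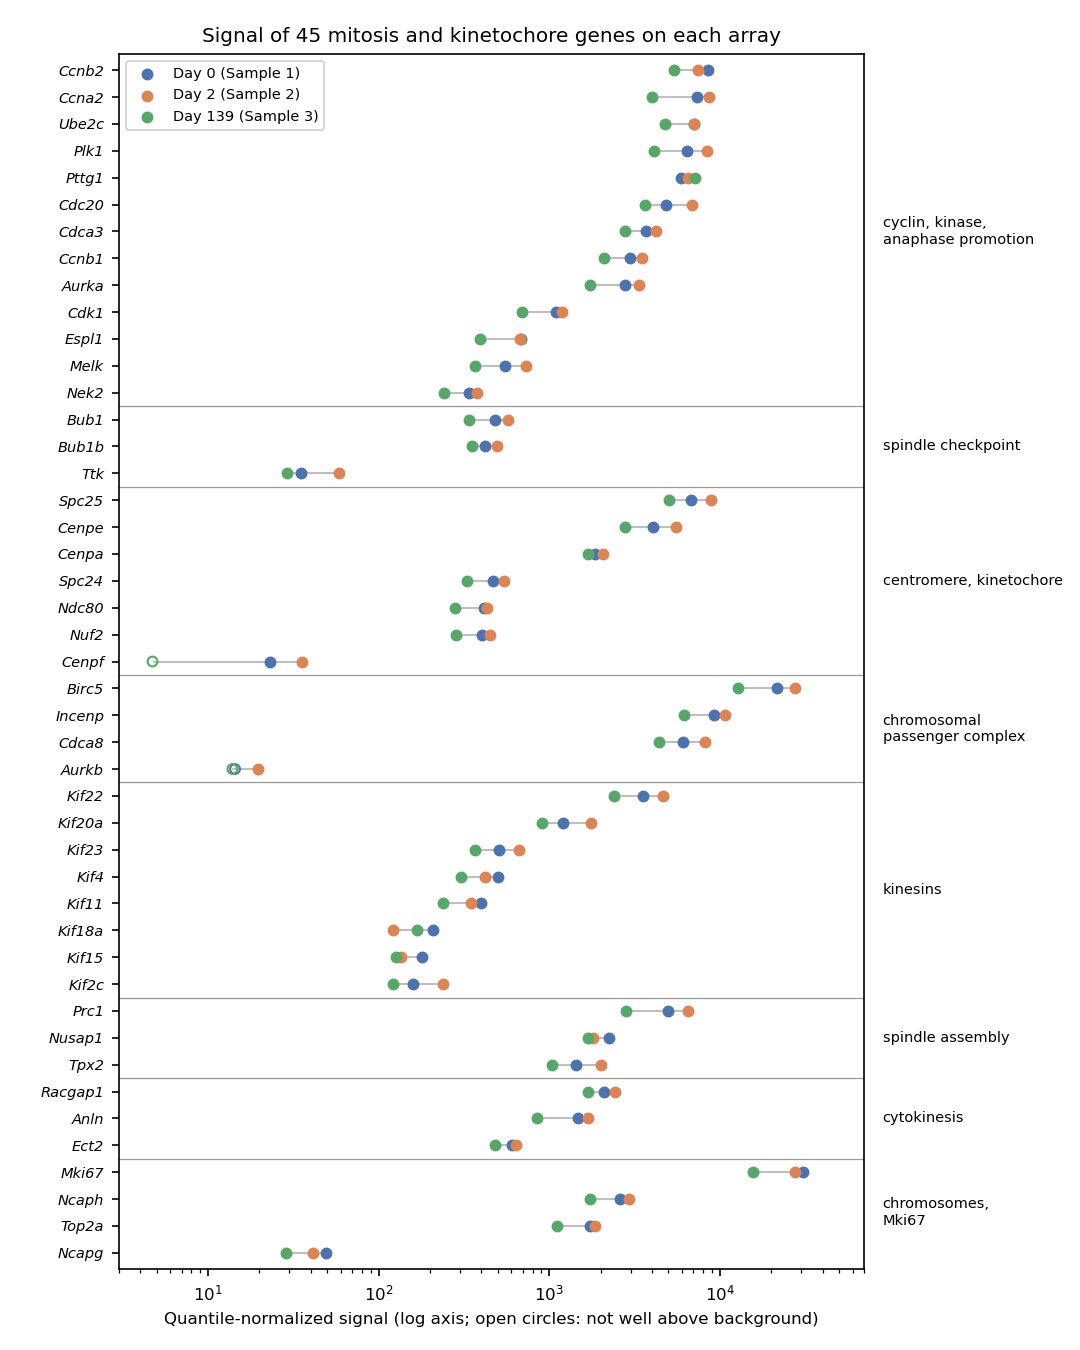
Quantile-normalized signal (log axis) of the 45 member genes on the arrays of day 0, day 2 and day 139, 1 point per array, grouped by role. Open circles mark signals not well above background; the day 139 point is leftmost in 43 genes with quantile normalization, and levels of different genes are not comparable because each comes from its own probe.

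Against day 0, the median log2 ratio of the members on day 139 was -0.52, beside 0.00 for all detected genes. The ratio was below 1 in 44 of 45 members, beside 50.3% of all genes. It was at most 0.66, the limit for a decrease in the study, in 15 members (33.3%), beside 13.7% of all genes, and with spike-in scaling in 2 members, beside 7.03%. It was at least 1.5 in 0 members, beside 13.6%. With quantile normalization, the log2 ratio lay below 0 by more than the spot error in 41 members and above 0 by more than it in 1, Pttg1. The 3 within the error were Ttk, Cenpa and Aurkb. The spot error does not cover the scaling of the arrays. With spike-in scaling the member median was -0.15, beside a median spot error of 0.20, and the ratio was below 1 in 36 members. With quantile normalization, the decrease thus stayed within the ratio limit in most members and had the same sign in nearly all of them, with an SD of 0.35 over the members. Aurkb and Cenpf enter these counts at their measured signals, and the median was -0.52 also with both at their bounds.

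Against day 2, the median log2 ratio on day 139 was -0.77, beside -0.03 for all genes. A ratio below 1 was found in 43 members, beside 52.4% of all genes. A ratio of at most 0.66 was found in 31 members (68.9%), beside 13.6% of all genes (7 members beside 5.59% with spike-in scaling), and a ratio of at least 1.5 in 0, beside 12.9%. Thus the gap between day 139 and day 2 was wider than that between day 139 and day 0, since most members were somewhat higher on day 2.

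From day 0 to day 2 the shift was small and upward. The median log2 ratio was 0.21, beside 0.02 for all genes. The ratio was below 1 in 9 members, beside 47.2% of all genes. Of the 45 log2 ratios, 22 lay above 0 by more than the spot error, 5 below it and 18 within it. The ratio reached 1.5 in 3 members, beside 9.96% of all genes, and they were Ttk, Cenpf and Kif2c. It was at most 0.66 in 1 member, Kif18a, beside 9.92%. With normexp background correction none of these calls was kept, with 0 members at or above the upper limit, beside 3.46% of all genes, and 0 at or below the lower one, beside 4.09%.

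The study also asked for a Z-score of at least 2 in size, and its methods do not state how the score was computed. Here it was taken as the log2 ratio over the local SD of probes of like signal, so the counts may differ from the study's own. Few members met this limit together with the ratio limit. It was 0 members for day 139 over day 0, beside 5.49% of all genes, and for day 2 over day 0 also 0, beside 4.92%. It was 2 members for day 139 over day 2, Birc5 (Z = -2.23) and Cenpf (at the limit itself), beside 4.85%. The day 139 signal of Cenpf was not well above background. When detection on all 3 arrays was asked for, 1 member was left, beside 4.94% of all genes. With spike-in scaling 0 were left, beside 6.79%. The Z-score of the members ran from -1.89 (Mki67) to 0.42 (Pttg1) for day 139 over day 0. These counts depend on the spread used. When the local SD was replaced by a median absolute deviation (scaled), 7 members met both criteria for day 139 over day 0, beside 12.5% of all genes, and 23 for day 139 over day 2, beside 10.9%.

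**Figure D2:**
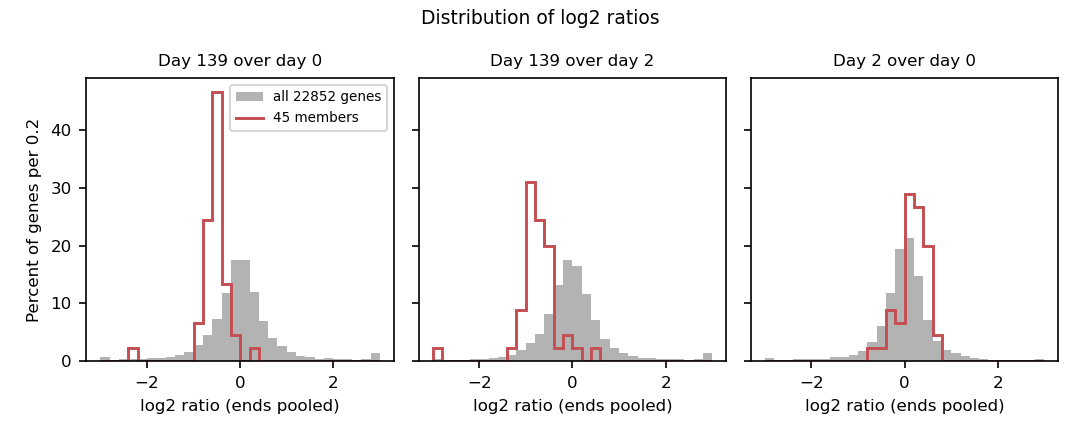
Distribution of log2 ratios in bins of 0.2, as a percentage of genes, for the 45 members (line) and all 22852 detected genes (gray), for each pair of days; values beyond the axis are pooled in the end bins. The members sit left of the gray distribution in both comparisons of day 139 (medians -0.52 and -0.77, beside 0.00 and -0.03) and slightly to its right for day 2 over day 0 (0.21 beside 0.02).

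The scaling of the arrays bears on these levels. When signals were scaled to 8 spike-in control RNAs instead, the median of all genes moved to 0.37 for day 139 over day 0 and to 0.39 for day 139 over day 2. The members then had medians of -0.15 and -0.35. Relative to the median of all genes they were at -0.52 and -0.74, beside -0.51 and -0.74 with quantile normalization. With this scaling the ratio of day 139 to day 0 was below 1 in 36 members. Bub1b, Ttk, Cenpa, Aurkb, Kif20a, Kif18a, Ect2 and Racgap1 turned to above 1, beside Pttg1. That of day 139 to day 2 was below 1 in 39 members, with Cenpa, Kif15, Nusap1 and Ect2 turning to above 1. Lower and higher are therefore used below relative to the other genes of the same array. For day 2 over day 0, the direction of every member was the same with both scalings.

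The promoters of the members were searched for the letters of these elements. RefSeq promoters of GRCm38.p6, running from 250 bases before to 50 bases after the annotated start, were matched to 39 of 45 members (1 start per gene, the most upstream). Ccna2, Aurkb, Incenp, Spc24, Kif20a and Tpx2 had no entry. The CHR letters TTTGAA, on either strand, were present in 28 of 39 member promoters (71.8%), beside 18.2% of all 27025 promoters and 12.6% of those of detected genes. CCAAT, on either strand, was present in 28 (71.8%), beside 38.0% of all promoters. Both were present in 24 (61.5%), beside 7.16%. The CHR variant TTTAAA was found in 9 (23.1%), beside 13.1%. E2F-type letters were rarer, TTTGGCGC in 2 (5.13%, beside 0.537%) and TTTCGCGC in 1 (2.56%, beside 0.326%). A TTTGAA match was not also counted as TTTAAA. Such matches are letters in a window and not evidence of binding.

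The following stretches are the 130 bases before the start, printed 5′ to 3′ on the strand of the gene. Cdk1, Cdc20, Ube2c, Kif11 and Top2a are shown because both elements lie close to the start, and Mki67 because it has a pair of CHR letters farther upstream. Pttg1 and Kif18a are shown because they are the members that were not lowest on day 139 with quantile normalization, and neither motif is in their window. Capitals mark TTTGAA or its reverse TTCAAA, and CCAAT or its reverse ATTGG. In GRCm38.p6 they lie at Cdk1 chr10:69352913-69353042 (minus strand), Cdc20 chr4:118437344-118437473 (minus strand), Ube2c chr2:164769799-164769928 (plus strand), Kif11 chr19:37376252-37376381 (plus strand), Top2a chr11:99024190-99024319 (minus strand), Mki67 chr7:135716380-135716509 (minus strand), Pttg1 chr11:43425982-43426111 (minus strand) and Kif18a chr2:109280608-109280737 (plus strand).
Cdk1: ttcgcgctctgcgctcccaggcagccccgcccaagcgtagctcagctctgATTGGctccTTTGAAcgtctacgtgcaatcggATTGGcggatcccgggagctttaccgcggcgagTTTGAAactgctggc
Cdc20: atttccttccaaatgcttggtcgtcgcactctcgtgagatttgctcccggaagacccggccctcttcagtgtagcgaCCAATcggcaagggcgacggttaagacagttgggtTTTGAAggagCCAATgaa
Ube2c: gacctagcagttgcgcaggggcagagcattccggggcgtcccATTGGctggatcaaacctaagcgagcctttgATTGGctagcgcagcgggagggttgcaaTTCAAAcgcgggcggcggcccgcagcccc
Kif11: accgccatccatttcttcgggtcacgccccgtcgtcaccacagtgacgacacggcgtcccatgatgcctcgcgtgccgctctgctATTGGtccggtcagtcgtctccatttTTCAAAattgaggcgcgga
Top2a: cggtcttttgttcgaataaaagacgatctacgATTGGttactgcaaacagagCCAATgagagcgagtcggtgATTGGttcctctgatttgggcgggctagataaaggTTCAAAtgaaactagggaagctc
Mki67: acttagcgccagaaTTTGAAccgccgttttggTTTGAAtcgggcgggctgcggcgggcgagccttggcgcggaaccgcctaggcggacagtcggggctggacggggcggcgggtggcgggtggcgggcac
Pttg1: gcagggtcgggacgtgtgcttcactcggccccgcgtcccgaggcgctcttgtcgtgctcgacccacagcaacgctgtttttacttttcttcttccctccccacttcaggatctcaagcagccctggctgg
Kif18a: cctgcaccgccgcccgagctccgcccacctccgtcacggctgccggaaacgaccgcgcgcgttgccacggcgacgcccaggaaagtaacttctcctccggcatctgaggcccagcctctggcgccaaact

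Pttg1, Melk, Nuf2, Kif18a, Nusap1 and Ncaph were the 6 members with no match to either CHR form and no CCAAT in the window. Members with TTTGAA had medians close to those without it, a description with no test. For day 139 over day 0 the median log2 ratio was -0.56 in the 28 with the letters and -0.50 in the 11 without. For day 139 over day 2 it was -0.78 and -0.74, and for day 2 over day 0 it was 0.20 and 0.17. The ranges of the 2 sets overlapped in each comparison.

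**Figure D3:**
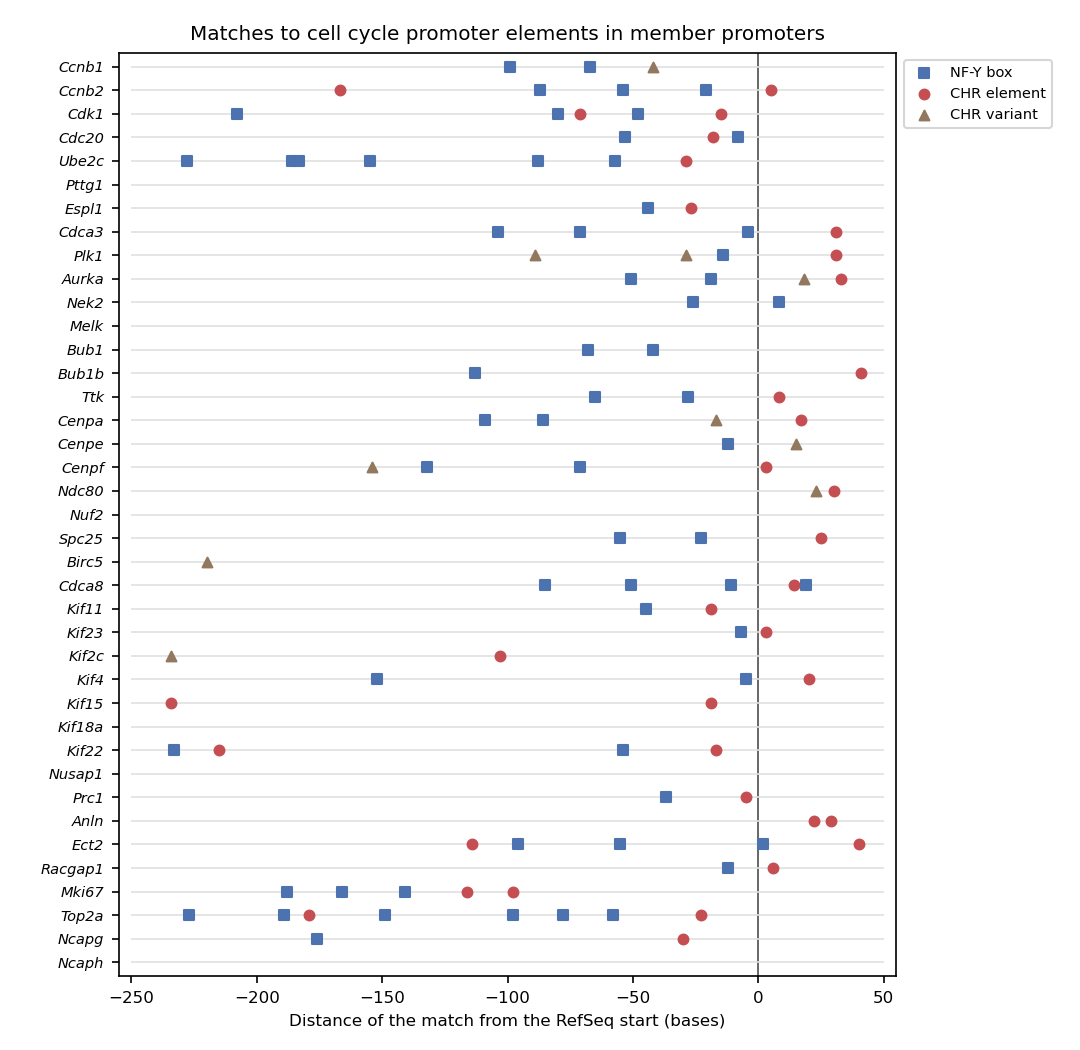
Position of promoter motifs in the 39 member promoters with a RefSeq entry, in bases from the annotated start (vertical line), matched on either strand. Circles are the CHR element TTTGAA, triangles its variant TTTAAA, and squares the NF-Y box CCAAT; CHR matches gather near the start and NF-Y boxes mostly upstream of it, with no match in the rows of 6 genes.

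The cyclins and kinases that drive entry into mitosis were lower on day 139. Cyclin A2 (Ccna2), which serves S phase and mitotic entry, had signals of 7383 on day 0, 8637 on day 2 and 4021 on day 139. Day 139 was 0.545 times day 0 and 0.466 times day 2. Cdk1, the kinase that the mitotic cyclins activate, had 1102, 1192 and 697, with log2 ratios for day 139 of -0.66 to day 0 and -0.77 to day 2. Of the B cyclins, Ccnb1 was highest on day 2 (2958, 3493 and 2094) and Ccnb2 on day 0 (8560, 7477 and 5399). Both were lowest on day 139. Their log2 ratios of day 2 to day 0 were 0.24 and -0.20, each with a spot error of 0.20. The other Ccnb1 probes were at 0.02 and 0.59, so no difference between the B cyclins on the early days was read. Plk1, a kinase of centrosome maturation and mitotic exit, had 6414, 8439 and 4086. Its day 139 signal was 0.637 times that of day 0 and 0.484 times that of day 2. Aurka, which acts at spindle poles, had 2786, 3371 and 1731. Nek2, a centrosome kinase (339, 379 and 241), and Melk, a kinase named for its maternal embryonic expression (549, 728 and 365), had the same order.

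Genes of the machinery that triggers anaphase were lowest on day 139, except Pttg1 on its brighter probe. Cdc20, the activator of the anaphase-promoting complex, had signals of 4847, 6880 and 3620 on day 0, day 2 and day 139. Its log2 ratio of day 2 to day 0 was 0.51, and that of day 139 to day 0 was -0.42. Ube2c, the ubiquitin-conjugating enzyme of this complex, was nearly the same on the early days on its brighter probe (7033 and 7078) and lower on day 139 (4792). Its second probe had 6109, 4907 and 3589, lower on day 2 than on day 0 (log2 ratio -0.32, spot error 0.20). A plateau like that of the brighter Ube2c probe was seen for Espl1, the separase that opens cohesin, with 680, 677 and 392. Cdca3, a trigger of mitotic entry, had 3707, 4240 and 2788. Pttg1, the securin that restrains separase, had 5897, 6533 and 7175 and was the only member highest on day 139 with quantile normalization. With spike-in scaling, Cenpa, Kif18a and Ect2 were highest on day 139 as well. The ratio of day 139 to day 0 was 1.22 for Pttg1 and that to day 2 was 1.1. A dimmer probe of Pttg1 had 64.0, 48.9 and 45.7, the opposite direction. Securin and separase, an inhibitor and its target, thus had opposite signs on the brighter probe, at 0.28 and -0.80 on the log2 scale for day 139 over day 0. Over the 13 genes of cyclins, kinases and anaphase promotion, the median log2 ratios were -0.59 for day 139 over day 0, -0.77 over day 2 and 0.19 for day 2 over day 0.

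The spindle checkpoint kinases, which delay anaphase until chromosomes are attached, were highest on day 2 and lowest on day 139, with day 0 lowest for Bub1b and Ttk by spike-in scaling. Bub1 had 482, 571 and 339, and Bub1b, which inhibits the anaphase-promoting complex, had 423, 493 and 353. Ttk, the kinase at the top of the checkpoint, had 35.2, 58.9 and 29.1. Its day 2 over day 0 ratio of 1.67 was the highest of all members, but the signals were close to background and the spot error was 0.26 on the log2 scale. For day 139 over day 0, the log2 ratio of Ttk was -0.28 with a spot error of 0.33. The group medians were -0.28 for day 139 over day 0 (0.04 with spike-in scaling, a change of sign), -0.75 over day 2 and 0.24 for day 2 over day 0.

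Kinetochore genes were lower on day 139 to differing extents, except that Cenpa was higher with spike-in scaling. The 4 subunits of the NDC80 complex, which binds microtubules, had similar log2 ratios for day 139 over day 0: -0.57 for Ndc80, -0.50 for Nuf2, -0.52 for Spc24 and -0.43 for Spc25. Their signals on day 0, day 2 and day 139 were 415, 432 and 280 for Ndc80. They were 403, 452 and 285 for Nuf2. Spc24 had 471, 540 and 329, and Spc25 had 6805, 8871 and 5064. All 4 were lowest on day 139 and highest on day 2. Cenpe, a kinesin motor of the kinetochore, had 4068, 5539 and 2786. Cenpa, the histone variant that marks centromeres, differed least in this group, with 1867, 2057 and 1685 and a log2 ratio of -0.15 to day 0, within its spot error of 0.20. Cenpf, a large protein of the outer kinetochore, had 23.0 and 35.5 and then 4.73, which was not well above background. Set against the dimmest signal that still counted as well above background on day 139, Cenpf was at least 1.38-fold lower than on day 0 and at least 2.13-fold lower than on day 2. The medians over the 7 kinetochore genes were -0.52, -0.72 and 0.20.

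The chromosomal passenger complex corrects faulty attachments and later directs cytokinesis. Birc5 (survivin), its targeting subunit, had signals of 21539 on day 0, 27638 on day 2 and 12864 on day 139. Day 139 was 0.597 times day 0 and 0.465 times day 2. The other detected Birc5 probes were also lowest on day 139, with 2744, 2519 and 1478 for one and 1059, 1427 and 745 for the other. Incenp, the scaffold, had 9244, 10729 and 6140, and Cdca8 (borealin) had 6098, 8222 and 4414. Aurkb, the kinase of the complex, was well above background on day 2 alone, with 14.4, 19.7 and 13.9. Against the same kind of bound, it was at least 1.37-fold higher on day 2 than on day 0 and at least 1.18-fold lower on day 139 than on day 2. No fold was given for day 139 over day 0, as both signals were not well above background. With Aurkb at its measured values, the medians over the 4 subunits were -0.53, -0.85 and 0.40.

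The mitotic kinesins were divided on day 2, with 4 of 8 below their day 0 signal. Kif20a and Kif23, motors of the central spindle, had 1201, 1763 and 910 and 510, 669 and 369, respectively. Kif2c, which removes tubulin from microtubule ends, had 159, 240 and 121, and its day 2 over day 0 ratio was 1.51. A second Kif2c probe had 98.3, 174 and 105. Its log2 ratio of day 139 to day 0 was 0.09, above 0 but within its spot error of 0.22. Kif22, a motor on chromosome arms, had 3529, 4663 and 2411. These 4 were highest on day 2 with both scalings. Kif11, the motor that pushes the spindle poles apart, had 397, 346 and 239. Kif15, which can stand in for it, had 180, 135 and 126, and Kif4, a chromosome-bound motor, had 504, 421 and 302. Those 3 were highest on day 0 and lowest on day 139, except that Kif15 was lowest on day 2 with spike-in scaling. Kif18a, which limits chromosome oscillation, had 207, 122 and 169. It was the only member lowest on day 2 with quantile normalization, joined by Kif15 and Nusap1 with spike-in scaling. Its ratio of day 2 to day 0 was 0.589, that of day 139 to day 2 was 1.38 and that of day 139 to day 0 was 0.813. Group medians were -0.49, -0.70 and 0.10 over the 8 kinesins.

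**Figure D4:**
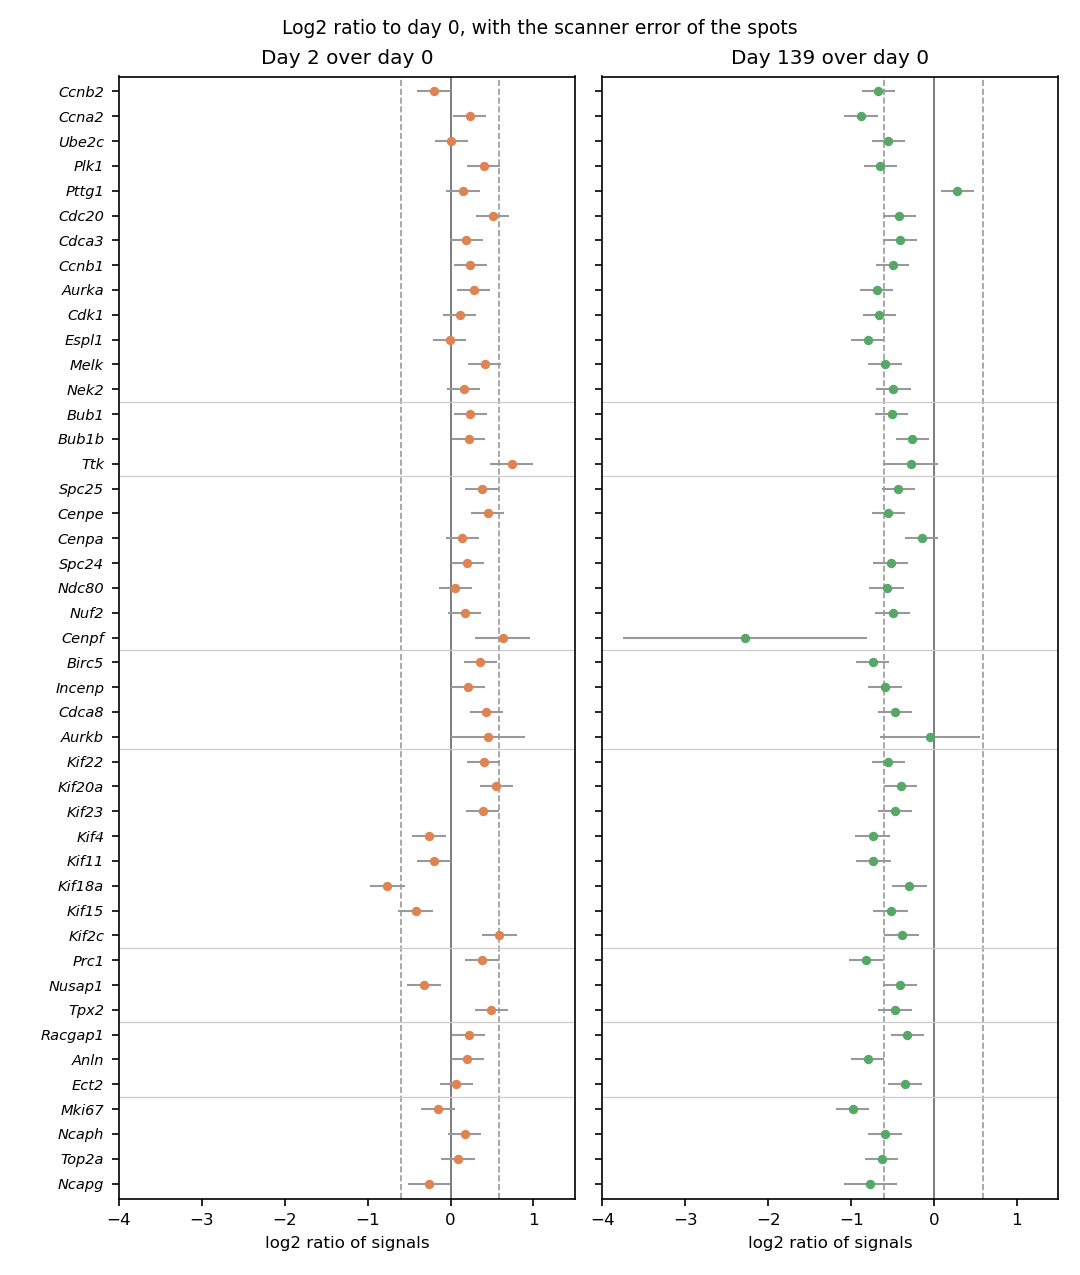
Log2 ratio of each member for day 2 over day 0 (left) and day 139 over day 0 (right), in the same order as the plot of signals, with bars for the scanner's spot error combined over both arrays. Dashed lines are the ratio limits of 1.5 and 0.66; on the right 44 of 45 points lie below 0 (36 with spike-in scaling), and Cenpf, at the far left, and Aurkb rest on signals not well above background on day 139.

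Genes of spindle assembly and cytokinesis were lowest on day 139, although Nusap1 over day 2, Racgap1 over day 0 and Ect2 over both turned to above 1 with spike-in scaling. Prc1, which bundles antiparallel microtubules in the midzone, had 5000, 6513 and 2825. Day 139 was 0.565 times day 0 and 0.434 times day 2, the lowest ratio to day 2 among members well above background on all arrays. Tpx2, an activator of Aurka, had 1439, 2016 and 1042. Nusap1, a microtubule-binding protein, was highest on day 0, with 2249, 1799 and 1687. Anln (anillin), a scaffold of the contractile ring, had 1480, 1697 and 851, and its day 139 signal was 0.575 times that of day 0 and 0.501 times that of day 2. Ect2, which activates RhoA at the cleavage plane, had 609, 640 and 479. Its partner Racgap1 had 2093, 2439 and 1677. The 3 spindle assembly genes had medians of -0.47, -0.95 and 0.38, and the 3 cytokinesis genes -0.35 (0.04 with spike-in scaling, a change of sign), -0.54 and 0.20.

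Genes of chromosome structure and the proliferation marker Mki67 had a group median of -0.70 over 4 genes for day 139 over day 0. Mki67, whose product coats mitotic chromosomes, had 30690 on day 0, 27728 on day 2 and 15556 on day 139. Day 139 was 0.507 times day 0, the lowest ratio to day 0 among members well above background on all arrays, and 0.561 times day 2. A second Mki67 probe had 26829, 22453 and 13854. Top2a, the topoisomerase that untangles sister chromatids, had 1734, 1852 and 1118. Ncapg and Ncaph, subunits of condensin I, had 49.0, 41.0 and 28.7 and 2601, 2936 and 1724. The Ncapg signals were close to background, with a spot error of 0.32 for day 139 over day 0. This group had a median of -0.75 over day 2 and was nearly flat between the early days, at -0.03.

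In all, 14 members had several detected probes. All detected probes of a gene had the same sign in 10 of them for day 139 over day 0, in 13 for day 139 over day 2 and in 9 for day 2 over day 0. The median range between probes of a gene was 0.38, 0.33 and 0.40 on the log2 scale, so that differences of this size between members cannot be read as differences between genes. Over all 62 detected member probes, the ratio was below 1 in 58, 60 and 15. In mm9, the build of the array's annotation, the probe used for Mki67 lies at chr7:142881591-142881650, that for Prc1 at chr7:87461048-87461107, that for Birc5 at chr11:117716978-117717037, that for Pttg1 at chr11:43233801-43233860 and that for Kif18a at chr2:109181416-109181475. Probes of a gene differed in size and in sign. The dim second probe of Kif23, not well above background on day 139, was at least 2.30-fold lower on day 139 than on day 0. A dim second Tpx2 probe had 31.8, 90.2 and 37.4, higher on day 139 than on day 0. Split by mean signal, the upper 23 members had a median of -0.55 for day 139 over day 0 and the lower 22 a median of -0.51.

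Further mitosis genes outside the member list were examined in the same way, a list of 84 of which 81 were detected (Ska2, Ska3 and Bora were not found among the array's names). Their medians were -0.42 for day 139 over day 0, -0.62 over day 2 and 0.18 for day 2 over day 0. The ratio was below 1 in 70 and 76 of 81 for the comparisons of day 139 and in 26 for day 2 over day 0. The shares of all genes were 50.3%, 52.4% and 47.2%. It was at most 0.66 in 23, 42 and 1 of them, beside 13.7%, 13.6% and 9.92% of all genes. A ratio of at least 1.5 was found in 0, 0 and 8, beside 13.6%, 12.9% and 9.96%. The 8 of 81 for day 2 over day 0 were thus close to the share of all genes. The lowest value for day 139 over day 0 was that of Kif18b (-1.13), a kinesin, and the highest that of Kif2a (0.50), which also works in resting cells. Kif2a rests on 1 of 3 probes, as the other detected probes were at -0.70 and -0.26. The extremes over day 2 were Iqgap3 (-1.49) and Cenpj (0.15), a centriole protein. Iqgap3 was also the highest for day 2 over day 0 (1.13), and Dlgap5, a spindle protein, the lowest (-0.60). The medians of the wider list thus had the signs of the members' at a smaller size. With spike-in scaling they were -0.04, -0.20 and 0.16, and the ratio was below 1 in 45, 60 and 26 of the 81 genes.

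DNA replication genes stood beside the mitosis genes. In 31 genes of origin licensing, the replication fork and nucleotide supply, the medians were -0.59, -0.82 and 0.16, beside -0.52, -0.77 and 0.21 for the members. With spike-in scaling they were -0.21, -0.45 and 0.22. The ratio was below 1 in 29, 28 and 9 of the genes, beside 50.3%, 52.4% and 47.2% of all genes. The TTTGAA letters were present in 16.0% of the 25 replication promoters with an entry and CCAAT in 68.0%. Replication genes thus had medians like those of the members and a TTTGAA share below their 71.8%.

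Markers of cell types were measured beside the members. The 8 erythroid precursor markers, among them Gata1 and Klf1, had medians of -0.79 for day 139 over either earlier day and 0.00 for day 2 over day 0. All 8 were below 1 in both comparisons of day 139, and each was well above background on every array. With spike-in scaling their medians were -0.40 and -0.43. Their summed signal was 76953, 90649 and 55575 on day 0, day 2 and day 139, a sum read between days only, since it is carried by its brightest probes. The 4 megakaryocyte markers had -0.70, -0.53 and 0.01, with sums of 25948, 28934 and 15919. The 5 granulocyte precursor markers had 0.11, -0.14 (0.28 with spike-in scaling) and 0.43. The erythroid and megakaryocyte markers thus shared the low value of day 139, and their part in the result was not tested.

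Lymphoid markers went the other way on day 139. The 5 B cell markers had medians of 1.15, 1.18 and 0.01, and the 5 T cell markers 0.88, 0.53 and 0.42. The 5 germinal center B cell markers, a population that divides, had 2.98, 3.00 and -0.02, and their summed signal was 314, 346 and 1549. Plasma cell markers had 1.25, 1.42 and -0.23. Among these 5, Xbp1 was lower on day 139 than on day 0 (-0.22), and with spike-in scaling 0 were lower. Every B, T and germinal center B cell marker was highest on day 139, where 43 members were lowest. The share of the members' signal that came from any of these cells was not tested.

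**Figure D5:**
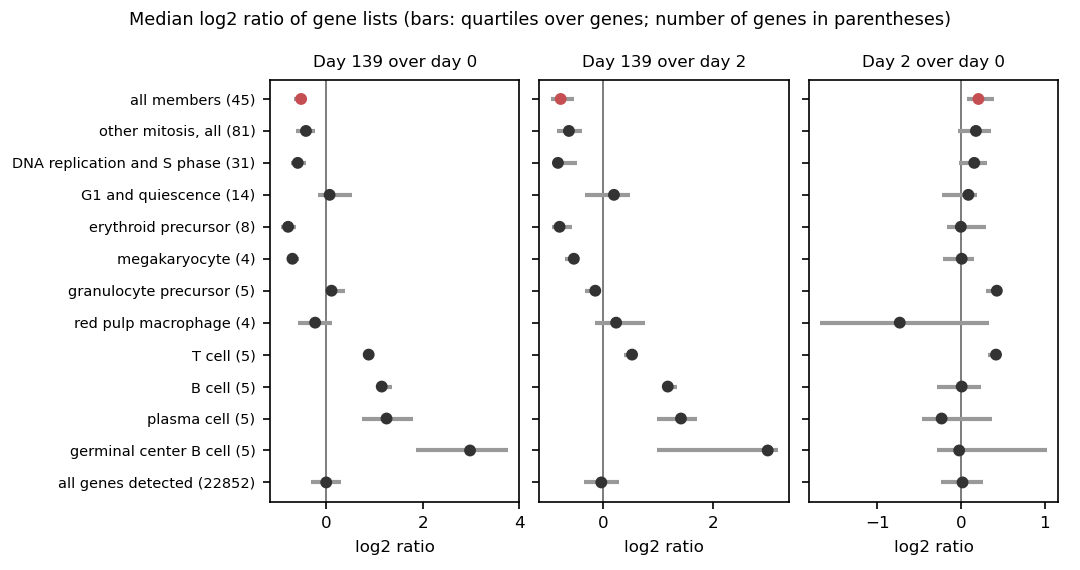
Median log2 ratio of each gene list for the 3 pairs of days, with bars from the first to the third quartile over genes and the number of detected genes in parentheses. Members, other mitosis genes, DNA replication genes and the erythroid and megakaryocyte markers lie left of 0 in both comparisons of day 139 (also with spike-in scaling, at smaller size), while B, T, plasma and germinal center B cell markers lie right of it.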

How the data were processed

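Total RNA of 3 spleen samples was hybridised to 1-colour Agilent mouse arrays, 1 array per day. The authors deposited the scanner output, the intensity of each spot on a linear scale (Feature Extraction 9.5.1.1 per the labels, 10.7.1.1 per the file headers, with probes placed on mm9), and a table of processed intensity values per probe. The 3 columns of that table shared 1 distribution, as quantile normalization gives, and it held the values used here. The labels name TRIzol with the SV Total RNA Isolation System and a low input labelling kit, the methods other kits; this was not settled.

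Control spots were left out. A probe was detected when at least 0.5 of its spots were well above background on at least 1 array. The highest mean signal chose the probe of a gene. Bounds used the higher of a probe's own signal and the dimmest detected signal of that array (12.9, 14.0 and 16.7). Z-scores divided the log2 ratio by the SD of the 1000 probes nearest in mean signal. Every member was described; of the other lists, the extremes. Members, lists and motifs were chosen with earlier results of these data known. With 1 array per condition no test was made, and the number of arrays limits the precision.

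Alternatives were a requantile-normalized scanner signal, normexp with an offset of 50 (limma 3.58.1, R 4.3.3), scaling by spike-in controls or by the 75th percentile, a floor, other detection filters, other probes, outlier spots kept, ratio limits of 2 and 0.5, and a median absolute deviation. Ratios, calls and medians were computed with pandas 2.3.3 and numpy 2.4.6 under Python 3.11.15 and tested on simulated data. Promoters were those of RefSeq (GRCm38.p6), used for sequence only.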

Additional observations from a re-analysis of the deposited data

How the results depend on the processing

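With 1 array per day there was no replicate to leave out, and depth is limited by signal over background in Aurkb, Cenpf, Ttk and Ncapg. No alternative turned the sign of a median over all members. Some group medians did turn. For day 139 over day 0, those of the spindle checkpoint and cytokinesis genes were 0.04 with spike-in scaling. For day 2 over day 0, that of chromosome structure and Mki67 was 0.01 with normexp and with 75th percentile scaling. Scaling to the spike-in controls moved the medians over all members to -0.15 for day 139 over day 0 and -0.35 over day 2. Members at or below the lower ratio limit then numbered 2 and 7 (7.03% and 5.59% of all genes). Those at or above the upper limit numbered 1 and 1 (31.6% and 33.6%). Past both criteria for day 139 over day 2 were 0, beside 6.79% of all genes. For day 2 over day 0, 1 was at or above the upper limit, beside 8.48%. Since this scaling shifts all genes, the members' distance from the median of all genes was -0.52, -0.74 and 0.20. Ratio limits of 2 and 0.5 left 1 member lower for day 139 over day 0 and 6 over day 2 (6.49% and 5.69% of all genes). For day 2 over day 0 they left 0 lower and 0 higher (4.73% and 4.29% of all genes). A median absolute deviation in the Z-score gave 7, 23 and 1 members past both criteria, where the first pair stood beside 12.5% and 10.9% of all genes. For day 139 over day 2, 1 member passed them with a floor, 1 with detection on all 3 arrays and 1 with the median over probes. The shares of all genes were 4.49%, 4.94% and 4.45%. Normexp background correction left 0 lower and 0 higher for day 2 over day 0 (4.09% and 3.46% of all genes). Beyond how the scalings and limits are built, the cause was not tested.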

Other observations

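Genes that regulate mitotic transcription were less uniform than their targets. In 15 of them, medians were -0.36 for day 139 over day 0 and -0.43 over day 2 (0.03 and 0.01 with spike-in scaling), and 0.11 for day 2 over day 0. Lin52, a subunit of the DREAM core, had signals of 871, 965 and 7712 on day 0, day 2 and day 139, a log2 ratio of 3.15 to day 0. This rests on 1 of 3 detected Lin52 probes, and the others went the other way, with 425, 385 and 379 and with 41.2, 43.3 and 30.7. E2f8, a repressor of S phase genes, was the lowest for day 139 over day 0 (-0.97) and its relative E2f7 for day 139 over day 2 (-1.31). Lin9, another core subunit, was the highest for day 2 over day 0 (1.11), and Rb1 the lowest (-0.29). A second Lin9 probe had the opposite direction for day 2 over day 0, with 60.0, 49.2 and 34.4 on the 3 days. Foxm1 and Mybl2, the activators of the mitotic wave, were named after their values were seen. They had the order of most members, with 403, 521 and 240 for Foxm1 and 4627, 5559 and 2980 for Mybl2.

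Genes of G1 and quiescence had medians of 0.07, 0.20 and 0.09 over 14 genes. Cdkn1a, an inhibitor of cyclin-dependent kinases, had 581, 615 and 165, the lowest of this list for both comparisons of day 139 (-1.82 and -1.90). Ccng2, a cyclin of resting cells, was the highest in both, with 55.1, 63.0 and 120 on day 0, day 2 and day 139. Cyclin D genes gave the extremes for day 2 over day 0, Ccnd2 at -0.81 and Ccnd1 at 0.51.

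Islet beta cell markers had medians of -0.99, -2.02 and 0.92 over 4 genes. Red pulp macrophage markers had -0.23 (0.18 with spike-in scaling), 0.24 and -0.73 over 4 genes.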
